A study of Mus musculus with 10 samples.

Results

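Collagen genes were followed through lung tumors and liver metastases of mice that develop small cell lung cancer, a tumor of neuroendocrine type. They were taken as every gene whose symbol has the form of a collagen alpha chain (Col, a type number, the letter a and a chain number), which gave 44 of the 35288 genes in the table. All mice carried the RPR2 genotype, known as a model with floxed Rb1, Trp53 and Rbl2, and the RPR2;Nfibf/f mice, called Nfib-floxed below, carried floxed alleles of the transcription factor gene Nfib in addition. The 4 groups were Nfib-floxed liver metastases (n = 2), RPR2 liver metastases (n = 2), Nfib-floxed lung tumors (n = 3) and RPR2 lung tumors (n = 3), from 6 mice, 3 of each genotype. Tumors were cut out as whole pieces when the mice became ill and were frozen, so tumor cells, stroma and host tissue were sequenced together. In such pieces, fewer cells of a type and less RNA per cell cannot be told apart. Neither the age of the mice nor the driver of the recombination is stated in the labels. Levels are in TPM, transcript levels scaled to the same total in each library, which correct for transcript length, so genes can be compared by level. Where values are listed per library they follow the mouse tags: JHK1398 and JHK1399 for Nfib-floxed metastases, JHK1373 and JHK1394 for RPR2 metastases, JHK997, JHK1398 and JHK1399 for Nfib-floxed lung tumors, and JHK1373, JHK1394 and JHK1548 for RPR2 lung tumors.

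Collagens are secreted or membrane proteins in which alpha chains wind into a triple helix. Fibrillar collagens, above all types I and III, form the cross-linked fibrils that give interstitial matrix its tensile strength and come mainly from fibroblasts, stellate cells and related mesenchymal cells. Type IV collagen instead forms the sheet of basement membranes under epithelia and around vessels. Its alpha1 and alpha2 chains are found in nearly all tissues, while alpha3 to alpha6 replace or join them in particular epithelia, among them the alveoli of the lung. Further classes decorate fibrils (the FACIT collagens), anchor basement membranes (types VII, XV and XVIII), form beaded microfibrils (type VI) or make hexagonal networks from short chains (types VIII and X).

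Nfib, the targeted gene, was at 46.1 and 41.3 TPM in Nfib-floxed metastases and 62.8 and 643 TPM in RPR2 metastases. In lung tumors it was at 38.6, 38.01 and 26.5 TPM in the Nfib-floxed group and 85.3, 28.3 and 118 TPM in the RPR2 group. The lung groups overlapped, with a difference of means of -42.7 TPM (two-sided exact permutation test, p = 0.3, where 3 against 3 cannot go below 0.1). Over the 10 libraries Rb1 was at 41.6 to 143 TPM, Trp53 at 10.8 to 28.005 TPM and Rbl2 at 6.97 to 38.9 TPM. Whole-gene TPM does not separate transcripts with and without a recombined exon, so these levels do not check the deletions. Several libraries stood apart in the cells they held. The summed level of 10 hepatocyte markers was 98.9 and 2666 TPM in Nfib-floxed metastases, 9196 and 9245 TPM in RPR2 metastases and 94.5 to 1248 TPM in the 6 lung tumors, so the Nfib-floxed metastasis of JHK1398 lay within the range of lung tumors. All 6 epithelial markers, Cdh1, Epcam, Krt8, Krt18, Cldn7 and Cldn4, were lower in both RPR2 metastases than in the other 8 libraries, with sums of 256 and 308 TPM against 1662 to 3611 TPM. The Nfib-floxed lung tumor of JHK1398 and the RPR2 lung tumor of JHK1394 held the most club cell marker RNA (55984 and 60565 TPM).

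Of the 44 genes, 29 averaged 1 TPM or more and were tested. They were 9 of 11 fibrillar, 3 of 6 type IV, all 3 basement membrane zone, 4 of 6 type VI, 7 of 9 FACIT, 2 of 3 short-chain and 1 of 4 transmembrane genes. Neither of the remaining types, XXVI and XXVIII, passed. By summed mean TPM, the short-chain class held 48.1% of collagen RNA, the fibrillar class 18.9%, type IV 10.2%, the basement membrane zone class 9.27%, the FACIT class 8.57% and type VI 3.75%. The members were variable: the highest library exceeded the lowest by a median of 11.97 times over the 29 genes, against 4.002 times over the 14658 tested genes with no value of 0. Summed over all 44, collagen RNA was at 535 and 1167 TPM in Nfib-floxed metastases and 341 and 499 TPM in RPR2 metastases. It was at 1525, 438 and 487 TPM in Nfib-floxed lung tumors and 667, 837 and 481 TPM in RPR2 lung tumors. Without Col8a1, the sum ran from 222 to 704 TPM, a spread of 3.18 times in place of 4.47 times.

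**Figure D1:**
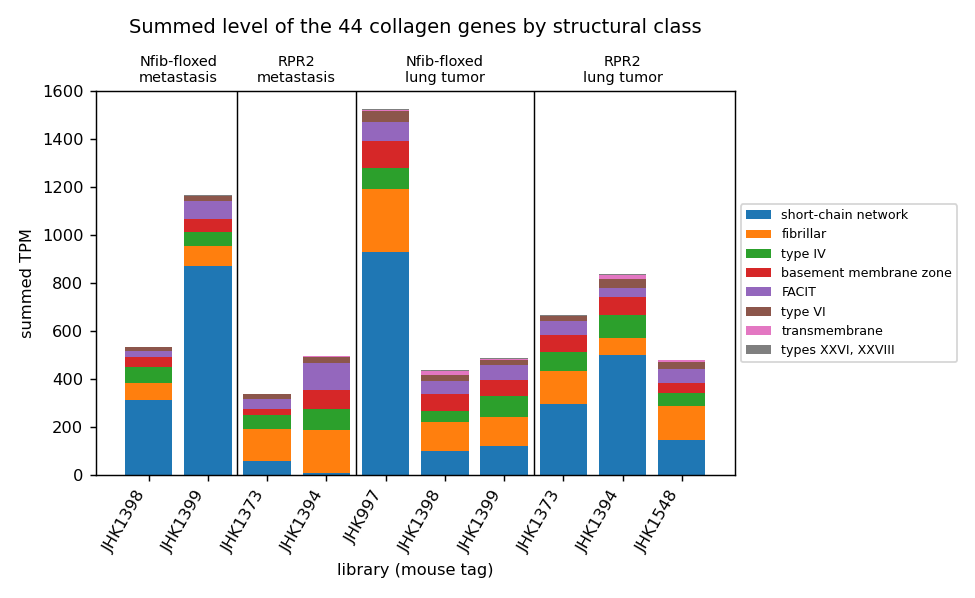
Stacked bars give the summed TPM of the 44 collagen genes by structural class in each of the 10 libraries, named by mouse tag and set by group. The short-chain class, nearly all of it Col8a1, ran from 10.8 to 929 TPM and set most of the difference in bar height, while the fibrillar class ran from 70.0 to 264 TPM and type IV from 43.9 to 92.9 TPM.

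No collagen gene passed in any of the 7 comparisons made with limma on log2(TPM + 1) at a Benjamini-Hochberg adjusted p under 0.05. Between Nfib-floxed and RPR2 metastases 2.04% of all 15503 tested genes passed. Of the 29 collagen genes 3 had an unadjusted p under 0.05 there, where 12.8% of all genes did, and their median log2 difference was -0.22 beside 0.0 for all genes. Between Nfib-floxed and RPR2 lung tumors 0% of all genes passed, 3 collagen genes and 7.93% of all genes had an unadjusted p under 0.05, and the medians of collagen and all genes were 0.15 and -0.10. For metastases against lung tumors of Nfib-floxed mice 0.123% of all genes passed, 5 collagen genes and 9.39% of all genes had an unadjusted p under 0.05, and the medians were -0.80 and -0.05. In RPR2 mice the same comparison passed 5.61% of all genes, with 5 collagen genes and 18.8% of all genes at an unadjusted p under 0.05 and medians of -0.24 and -0.15. The collagen genes were thus lower in metastases by median in both genotypes, and in both they lay below the median of all genes. For the interaction of genotype and tissue, 0.581% of all genes passed and 4 collagen genes had an unadjusted p under 0.05 (9.68% of all genes). The mean genotype effect passed 0.587% of all genes, with 5 collagen genes under 0.05 unadjusted (13.4%), and the mean tissue effect passed 5.88%, with 8 (20.8%). The metastasis genotype comparison and the RPR2 tissue comparison share the RPR2 metastases, and every tissue comparison shares its lung tumors with the lung genotype comparison, so the members' differences are not independent between them. A p above the threshold does not show that the groups were alike: with 2 or 3 libraries a group, standard errors of single genes ran up to more than a log2 unit.

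**Figure D2:**
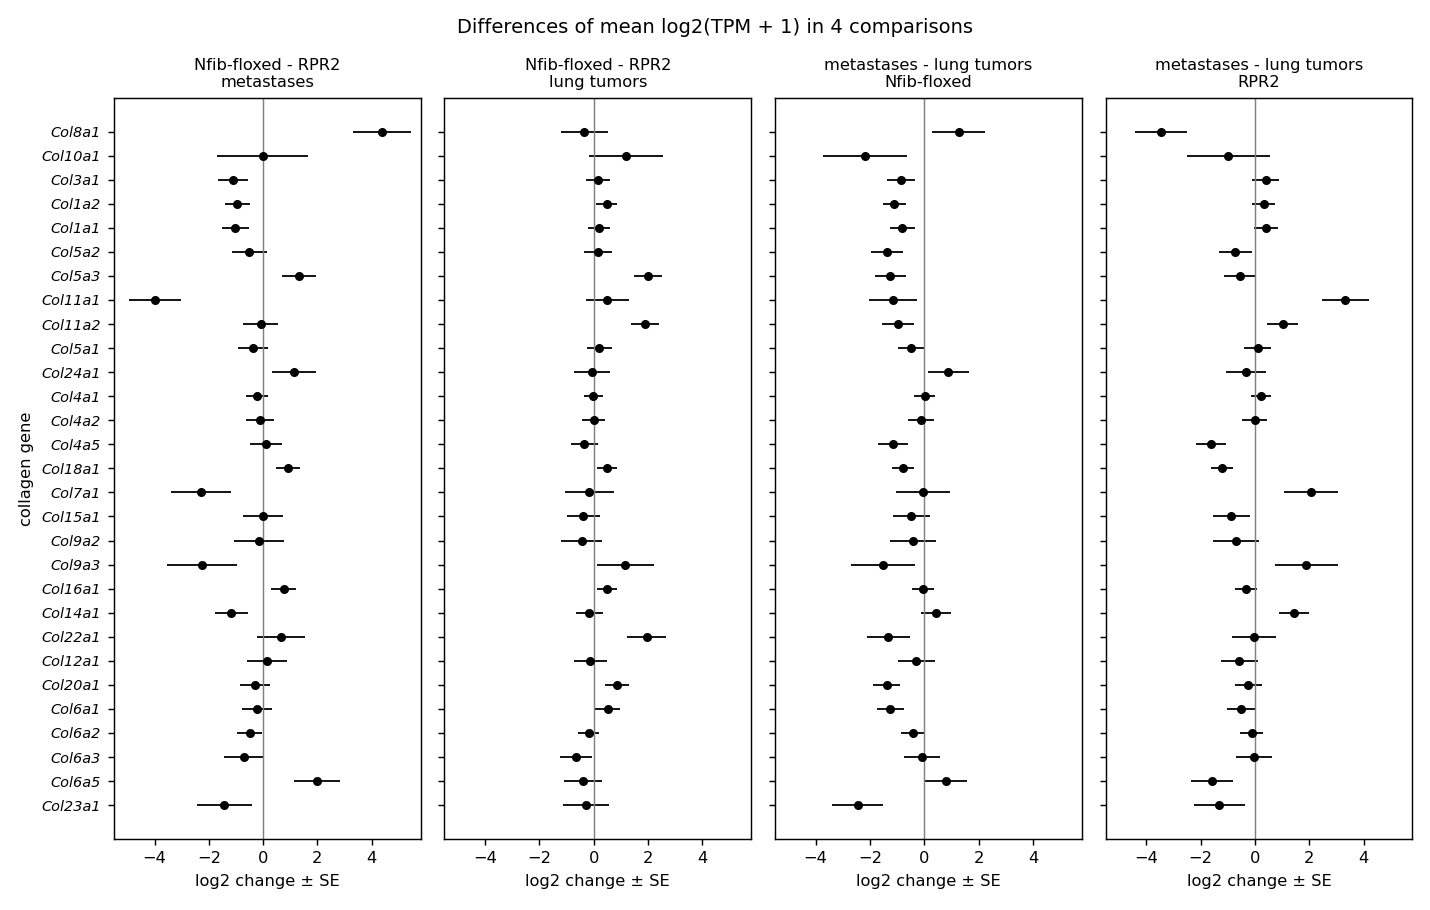
Points give the log2 difference of mean log2(TPM + 1) with its standard error for the 29 tested collagen genes in 4 comparisons, each titled with the group named first minus the other. Col8a1 and Col11a1 lie farthest from 0 in the metastasis genotype panel (4.37 and -3.98) and on opposite sides in the RPR2 tissue panel (-3.46 and 3.33), and no point passed the adjusted threshold.

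Col8a1 encodes the alpha1 chain of type VIII collagen, a short-chain collagen of vessel walls and of the membrane under corneal endothelium. Of all collagen genes it had the highest level in 9 of the 10 libraries. Its level was 314 and 872 TPM in Nfib-floxed metastases (593 ± 395, SD, n = 2) and 58.7 and 9.72 TPM in RPR2 metastases (34.2 ± 34.6, SD, n = 2). In lung tumors it was 821, 102 and 123 TPM in the Nfib-floxed group and 288, 501 and 147 TPM in the RPR2 group. The metastasis groups did not overlap, both RPR2 metastases lay below all lung tumors, and the lung tumor groups overlapped widely. Col8a1 made up 58.6% and 74.7% of collagen TPM in Nfib-floxed metastases and 17.2% and 1.95% in RPR2 metastases. Col8a2, whose product is the partner alpha2 chain, stayed at or below 0.435 TPM in every library. The log2 difference was 4.37 ± 1.06 (SE) between the genotypes in metastases, with an adjusted p of 0.0659, and -3.46 ± 0.97 between RPR2 metastases and RPR2 lung tumors, with an adjusted p of 0.0667. With mouse as a fixed block the second became -3.91 ± 0.73 with an adjusted p of 0.0378. Without the Nfib-floxed lung tumor of JHK997 the SE of the first was 0.82 and its adjusted p 0.0349, and the SE of the second was 0.75 and its adjusted p 0.0286. Over all alternative fits, the first ran from 3.13 to 5.61 and passed in 1 of 20. The second ran from -4.70 to -2.22 and passed in 2 of 21. The interaction was 4.72 ± 1.37 (adjusted p = 0.242) and the mean genotype effect 2.05 ± 0.70 (adjusted p = 0.233). In the same mouse, the metastasis exceeded the lung tumor by 1.62 and 2.81 log2 units in the 2 Nfib-floxed mice and differed by -2.28 and -5.55 in the 2 RPR2 mice. The epithelial markers given above were low in the 2 libraries where Col8a1 was lowest, and their part in the difference was not tested.

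**Figure D3:**
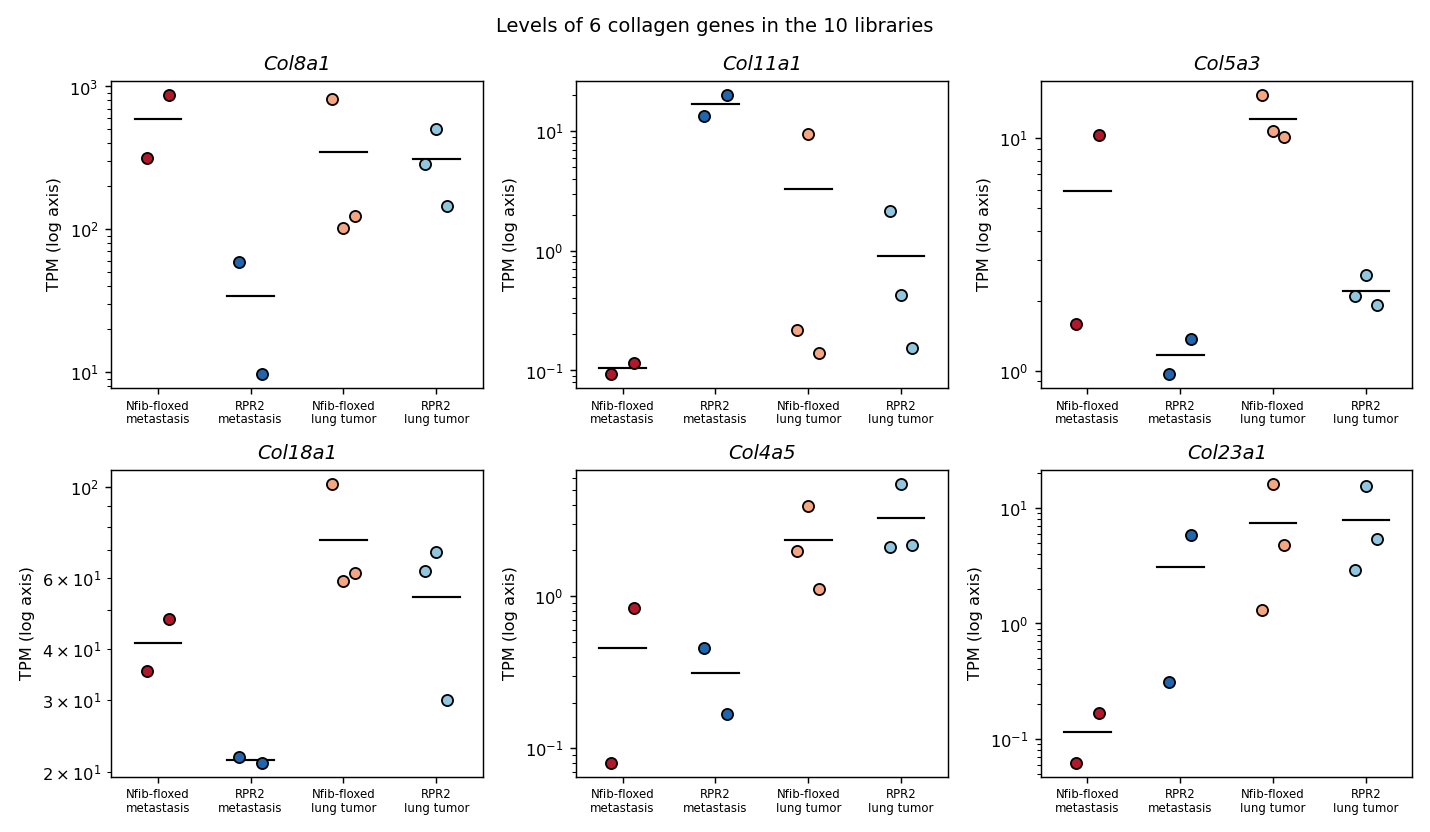
Points give the TPM of 6 collagen genes in each library on log axes, by group, and bars give group means. Col8a1 is lowest and Col11a1 highest in RPR2 metastases, Col5a3 is at 10.2 TPM or more in all 3 Nfib-floxed lung tumors, and the 4 metastases lie below all 6 lung tumors for Col4a5 only.

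Type I collagen is built of 2 chains from Col1a1 and 1 from Col1a2, and type III of 3 chains from Col3a1. Col1a1 was at 10.2 and 9.20 TPM in Nfib-floxed metastases and 19.3 and 22.3 TPM in RPR2 metastases, and at 28.5, 16.5 and 11.7 TPM in Nfib-floxed lung tumors and 22.3, 9.80 and 16.1 TPM in RPR2 lung tumors. Col1a2 was at 19.3 and 18.3 TPM in Nfib-floxed metastases and 30.7 and 45.0 TPM in RPR2 metastases, and at 61.9, 35.2 and 33.2 TPM in Nfib-floxed lung tumors and 40.8, 17.4 and 36.4 TPM in RPR2 lung tumors. Col3a1 was at 26.2 and 32.2 TPM in Nfib-floxed metastases and 55.3 and 72.5 TPM in RPR2 metastases, and at 109, 31.7 and 44.7 TPM in Nfib-floxed lung tumors and 52.9, 29.7 and 70.8 TPM in RPR2 lung tumors. In each of the 3 genes both Nfib-floxed metastases lay below both RPR2 metastases, and the lung tumor groups overlapped. Relative to each other, Col1a2 exceeded Col1a1 by 1.59 to 2.83 times and Col3a1 ran from 0.901 to 1.95 times Col1a2 over the 10 libraries. The log2 differences between the genotypes in metastases were -1.03, -0.95 and -1.10 for Col1a1, Col1a2 and Col3a1, and none passed. Between Nfib-floxed metastases and Nfib-floxed lung tumors Col1a2 differed by -1.11 ± 0.43 (adjusted p = 0.455), with no overlap.

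Summed over the 11 fibrillar genes, the level was 70.0 and 83.1 TPM in Nfib-floxed metastases and 132 and 179 TPM in RPR2 metastases, a ratio of group means of 0.492. Leaving out each library in turn moved this ratio between 0.428 and 0.579. In lung tumors the sum was 264, 121 and 117 TPM in the Nfib-floxed group and 141, 72.0 and 142 TPM in the RPR2 group, and the groups overlapped. Of the 9 tested fibrillar genes, 7 were lower and 2 higher by mean in metastases of Nfib-floxed mice than of RPR2 mice, and 8 were lower and 1 higher in Nfib-floxed metastases than in Nfib-floxed lung tumors. In the RPR2 mice 6 were higher and 3 lower in metastases. Of all 15503 tested genes, 7692 were lower and 7751 higher between the genotypes in metastases. Between the tissues, 8324 were lower and 7169 higher in Nfib-floxed metastases, and 9242 were lower and 6253 higher in RPR2 metastases. Over all 29 tested collagen genes, 6 were higher (20.7%) and 10 lower (34.5%) without overlap in the metastases of Nfib-floxed mice, together 55.2%. Of all tested genes 23.8% were higher and 22% lower, together 45.8%. For Nfib-floxed metastases against Nfib-floxed lung tumors the count was 0 higher and 10 lower, 34.5%, where 7.76% of all genes were higher and 14.8% lower, together 22.5%. For the RPR2 mice it was 3 higher and 7 lower, 34.5%, where 15.1% of all genes were higher and 31% lower, together 46.1%. Beside the fibrillar sums, the 11 fibroblast markers summed to 220 and 128 TPM in Nfib-floxed metastases and 104 and 144 TPM in RPR2 metastases, and the 6 pericyte markers to 68.9 and 95.1 TPM against 110 and 95.4 TPM. The 6 hepatic stellate cell markers summed to 41.7 and 65.2 TPM against 40.8 and 64.5 TPM, and the 6 smooth muscle and myofibroblast markers to 119 and 106 TPM against 116 and 225 TPM. Gene by gene, more of these markers were lower than higher by mean in Nfib-floxed metastases, like the fibrillar genes. This held for 7 of 10 tested fibroblast markers (median log2 difference -0.41), 5 of 6 pericyte markers (-0.29), 5 of 6 smooth muscle and myofibroblast markers (-0.40), 3 of 4 tested stellate cell markers (-1.19) and 8 of 10 endothelial markers (-0.31), none of which passed with limma, while 4 of these 36 had an unadjusted p under 0.05. The part of any of these cells in the fibrillar levels was not tested.

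Among the minor fibrillar chains, Col11a1 and Col5a3 differed most. Col11a1 encodes a chain of type XI collagen, which sets fibril diameter in cartilage and is made by activated stroma of several cancers. Its level was 0.0935 and 0.116 TPM in Nfib-floxed metastases and 13.5 and 20.0 TPM in RPR2 metastases. Lung tumors had 0.218, 9.44 and 0.139 TPM in the Nfib-floxed group and 2.14, 0.428 and 0.155 TPM in the RPR2 group. RPR2 metastases stood above all other libraries, and the Nfib-floxed lung tumor of JHK1398 was the only other one above 3 TPM. The log2 difference was -3.98 ± 0.96 (SE) between the genotypes in metastases (adjusted p = 0.0659) and 3.33 ± 0.88 between RPR2 metastases and RPR2 lung tumors (adjusted p = 0.0540), and the interaction was -4.47 ± 1.25 (adjusted p = 0.218). With mouse as a random block, the RPR2 tissue difference was 3.32 ± 0.86 with an adjusted p of 0.0480. Without the Nfib-floxed lung tumor of JHK1398 the adjusted p was 0.0102 between the genotypes and 0.00811 between the RPR2 tissues. Without that of JHK1399 it was 0.0472 between the RPR2 tissues. Over all alternative fits, Col11a1 passed in 3 of 19 between the genotypes in metastases, with differences from -6.33 to -2.07. Between the RPR2 tissues it passed in 6 of 20, with differences from 1.88 to 4.62. The 8 chondrocyte markers, which include the cartilage proteoglycan gene Acan, summed to 20.0 and 3.95 TPM in Nfib-floxed metastases and 7.70 and 3.76 TPM in RPR2 metastases, with Ucma at 0 in all 4. Of the 3 tested chondrocyte markers 2 were lower by mean in Nfib-floxed than in RPR2 metastases, with a median log2 difference of -0.95. The remaining 1 was higher, and it alone of the 3 had an unadjusted p under 0.05 (adjusted p = 0.140). In RPR2 metastases against RPR2 lung tumors, 3 of 4 tested hepatic stellate cell markers were higher by mean. Of these Colec11, a secreted lectin, passed (log2 change 3.36, adjusted p = 0.0369). The remaining 1 was lower with an unadjusted p under 0.05, and the stellate sums had means of 52.7 and 55.1 TPM. All 6 smooth muscle and myofibroblast markers were higher, of which 0 passed and 2 had an unadjusted p under 0.05 (18.8% of all genes). Of the pericyte markers 5 of 6 were higher. Lower by mean were 8 of 10 endothelial and 8 of 10 tested fibroblast markers, where 9242 of all 15503 tested genes were lower. Of the fibroblast markers (median -0.27), Mfap5 fell (adjusted p = 0.00694) and Fbln1 rose (adjusted p = 0.0385). The part of these cells in the level of Col11a1 was not tested.

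Col5a3 encodes the alpha3 chain of type V collagen, a minor component of fibrils. Its level was 1.59 and 10.3 TPM in Nfib-floxed metastases and 0.969 and 1.38 TPM in RPR2 metastases. Lung tumors had 15.3, 10.7 and 10.2 TPM in the Nfib-floxed group and 2.10, 2.58 and 1.93 TPM in the RPR2 group. Neither pair of genotype groups overlapped, and Col5a3 was the 1 collagen gene of 29 apart in the same direction in both tissues, 3.45%, where 4.23% of all tested genes were. The log2 difference was 2.01 ± 0.52 in lung tumors (SE, adjusted p = 0.595), 1.32 ± 0.63 in metastases (adjusted p = 0.433) and 1.67 ± 0.42 as the mean of both (adjusted p = 0.121). Leaving out each library in turn kept it between 1.84 and 2.11 in lung tumors and between 0.26 and 2.38 in metastases. The mean effect then ran from 1.14 to 2.204, with the highest value without the Nfib-floxed metastasis of JHK1398. Such a fit leaves 1 Nfib-floxed metastasis, which is assumed to vary like the other groups. Over all alternative fits, the mean effect of Col5a3 passed in 1 of 19, a fit that left out 1 library.

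In lung tumors, 4 collagen genes were higher in the Nfib-floxed group without overlap and 0 lower, 13.8%, where 5.66% of all tested genes were higher and 8.81% lower, together 14.5%. They were Col5a3, Col11a2, Col22a1 and Col20a1. Col11a2, the alpha2 chain of type XI collagen, was at 14.8, 7.66 and 2.81 TPM in Nfib-floxed lung tumors and 1.25, 0.686 and 1.69 TPM in RPR2 lung tumors (log2 difference 1.89 ± 0.52, adjusted p = 0.595). In metastases it was at 2.50 and 3.86 TPM in the Nfib-floxed group and 3.13 and 3.68 TPM in the RPR2 group, with the second range inside the first. Col22a1 and Col20a1 are described with the FACIT collagens below.

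Promoter windows of the 3 genes that differed most between the genotypes are shown because Nfib encodes a factor that binds DNA as a dimer. They hold 250 bases before and 50 bases after the start site in RefSeq's GRCm38.p6 annotation, and capitals mark a match to the half-site TTGGC on either strand. The Col8a1 window is chr16:57754688-57754987 on the minus strand, the Col11a1 window chr3:114030290-114030589 on the plus strand and the Col5a3 window chr9:20815018-20815317 on the minus strand.
Col8a1: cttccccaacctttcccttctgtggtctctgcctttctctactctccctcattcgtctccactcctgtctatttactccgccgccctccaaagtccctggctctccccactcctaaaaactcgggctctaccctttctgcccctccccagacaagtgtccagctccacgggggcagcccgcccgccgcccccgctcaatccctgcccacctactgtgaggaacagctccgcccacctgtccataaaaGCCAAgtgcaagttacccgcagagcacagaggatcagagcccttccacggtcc
Col11a1: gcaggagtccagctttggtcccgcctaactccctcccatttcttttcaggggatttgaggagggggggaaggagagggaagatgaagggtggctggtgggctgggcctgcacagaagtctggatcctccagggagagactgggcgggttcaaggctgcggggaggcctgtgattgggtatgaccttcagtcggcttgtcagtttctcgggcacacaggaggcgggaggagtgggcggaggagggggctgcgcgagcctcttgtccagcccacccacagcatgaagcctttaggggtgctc
Col5a3: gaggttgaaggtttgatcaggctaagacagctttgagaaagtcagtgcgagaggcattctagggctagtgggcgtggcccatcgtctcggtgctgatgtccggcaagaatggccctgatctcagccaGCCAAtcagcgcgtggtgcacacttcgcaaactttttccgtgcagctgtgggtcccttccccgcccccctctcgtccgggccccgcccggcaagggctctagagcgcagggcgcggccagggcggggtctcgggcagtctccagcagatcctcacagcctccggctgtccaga
The Col8a1 and Col5a3 windows each held 1 half-site, read as GCCAA, and in Col5a3 these letters overlap the CCAAT box motif. The Col11a1 window held none. Windows were found for 35 of the 44 collagen genes. The half-site lay in 15 of them, 42.9%, and in 46.7% of all 32851 promoter windows, and the full palindrome, TTGGC followed after 5 bases by GCCAA, lay in 0 of the 35 and in 0.0365% of all. The CCAAT motif was in 34.3% of collagen windows and 37.4% of all, TATAAA in 14.3% and 13.6%, and the GC box GGGCGG in 62.9% and 35.7%, each on either strand. A match is a description of letters in a window and not a binding site.

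Type IV collagen was carried by its alpha1 and alpha2 chains. Col4a1 was at 41.0 and 36.4 TPM in Nfib-floxed metastases and 38.3 and 53.5 TPM in RPR2 metastases, and at 46.5, 23.7 and 50.8 TPM in Nfib-floxed lung tumors and 41.9, 46.5 and 29.8 TPM in RPR2 lung tumors. Col4a2 was at 25.1 and 22.1 TPM in Nfib-floxed metastases and 20.5 and 32.1 TPM in RPR2 metastases, and at 36.9, 12.8 and 36.1 TPM in Nfib-floxed lung tumors and 28.3, 31.6 and 19.5 TPM in RPR2 lung tumors. All groups overlapped, and the Nfib-floxed lung tumor of JHK1398 was lowest for both genes. The 2 chains assemble as 2 alpha1 with 1 alpha2, and the Col4a1 level was 1.26 to 1.86 times that of Col4a2 in the 10 libraries. Their sum, 36.5 to 86.9 TPM, varied less than any class sum outside type IV. Log2 differences of Col4a1 and Col4a2 lay between -0.22 and 0.22 in the 4 comparisons of 2 groups. The fibrillar sum was 1.06 and 1.39 times the type IV sum in Nfib-floxed metastases and 2.22 and 2.07 times in RPR2 metastases. In lung tumors it was 3.05, 2.76 and 1.30 times in the Nfib-floxed group and 1.86, 0.775 and 2.65 times in the RPR2 group.

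The alpha3 to alpha6 chains were at low levels throughout, with the metastases lowest. Their summed level was 0.181 and 1.27 TPM in Nfib-floxed metastases and 0.713 and 0.919 TPM in RPR2 metastases. In lung tumors it was 3.19, 7.39 and 3.16 TPM in the Nfib-floxed group and 5.57, 14.8 and 4.34 TPM in the RPR2 group. Every metastasis lay below every lung tumor, and the RPR2 lung tumor of JHK1394 was highest. Only Col4a5, the alpha5 chain, passed the filter on low values. It was at 0.0805 and 0.835 TPM in Nfib-floxed metastases and 0.458 and 0.169 TPM in RPR2 metastases, and at 1.98, 3.93 and 1.12 TPM in Nfib-floxed lung tumors and 2.10, 5.50 and 2.18 TPM in RPR2 lung tumors. Of the 29 tested collagen genes it was the 1 with all 4 metastases below all 6 lung tumors, an arrangement found in 4.16% of all tested genes. Its mean tissue difference was -1.39 ± 0.39 on the log2 scale (SE, adjusted p = 0.0643), and it was lower in the metastasis in 4 of 4 mice with both tissues. Within each genotype the difference was -1.16 in Nfib-floxed mice and -1.62 ± 0.55 (adjusted p = 0.127) in RPR2 mice. Most markers of normal lung moved the same way. The 5 alveolar type 1 markers summed to 26.0 to 65.2 TPM in the 4 metastases and 84.5 to 816 TPM in the 6 lung tumors, with 2 of 5 apart, and the 6 alveolar type 2 markers to 4.35 to 41.1 TPM and 134 to 7749 TPM, with all 6 apart. Not all type 1 markers were lower: 1 of 5 was higher in both RPR2 metastases than in all 8 other libraries. Between the Nfib-floxed tissues, 1 of 5 was higher in metastases with an unadjusted p under 0.05 (limma). None of the type 1 and type 2 markers was at 0 in all metastases, and their part in the level of Col4a5 was not tested.

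**Figure D4:**
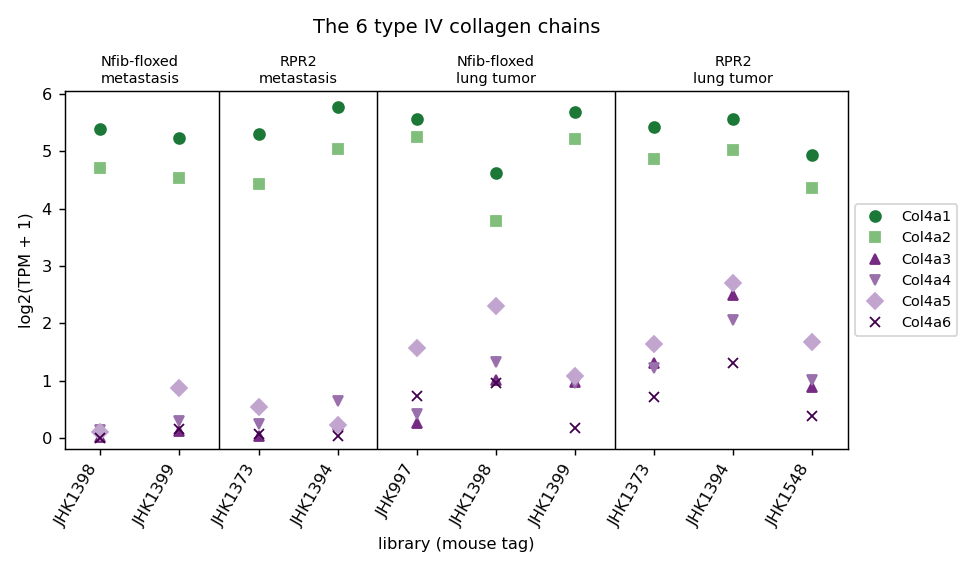
Symbols give log2(TPM + 1) of the 6 type IV collagen genes in each library, set by group. Col4a1 and Col4a2 run in parallel at 12.8 to 53.5 TPM in every library, while Col4a3 to Col4a6 are each at most 0.835 TPM in all 4 metastases and sum to 3.16 TPM or more in every lung tumor.

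The 6 type IV genes lie in 3 head-to-head pairs in the GENCODE annotation of GRCm38: Col4a1 and Col4a2 on chromosome 8, Col4a4 and Col4a3 on chromosome 1 with 71 bases between them, and Col4a6 and Col4a5 on chromosome X with 1308 bases between them. The first exons of Col4a1 and Col4a2 overlap by 22 bases, so their promoter windows are in part the same DNA read in opposite directions. The windows are shown because of this, with the 78 shared bases in capitals: Col4a1 is chr8:11312777-11313076 on the minus strand and Col4a2 is chr8:11312555-11312854 on the plus strand, from RefSeq's GRCm38.p6 table.
Col4a1: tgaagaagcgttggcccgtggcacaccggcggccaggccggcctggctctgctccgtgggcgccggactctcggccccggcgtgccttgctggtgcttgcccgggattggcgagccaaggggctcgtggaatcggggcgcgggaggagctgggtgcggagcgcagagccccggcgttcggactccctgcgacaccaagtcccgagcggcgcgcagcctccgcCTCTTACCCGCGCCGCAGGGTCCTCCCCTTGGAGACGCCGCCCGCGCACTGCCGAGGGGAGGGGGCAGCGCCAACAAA
Col4a2: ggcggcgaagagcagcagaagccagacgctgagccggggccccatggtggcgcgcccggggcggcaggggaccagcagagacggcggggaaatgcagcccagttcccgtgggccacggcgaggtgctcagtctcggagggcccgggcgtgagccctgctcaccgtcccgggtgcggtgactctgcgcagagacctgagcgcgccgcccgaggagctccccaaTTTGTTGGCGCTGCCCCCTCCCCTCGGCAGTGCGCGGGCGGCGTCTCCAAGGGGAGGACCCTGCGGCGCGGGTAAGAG
The capital stretches are reverse complements of each other, and both windows hold a CCAAT motif, the half-site TTGGC and the GC box. The labels do not say whether the libraries kept strand, so reads from the overlapping bases cannot be assigned to either gene.

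Collagens of the basement membrane zone were led by Col18a1, whose product bears heparan sulfate and releases the fragment endostatin. It was at 35.4 and 47.4 TPM in Nfib-floxed metastases and 21.7 and 21.1 TPM in RPR2 metastases, and at 102, 58.8 and 61.6 TPM in Nfib-floxed lung tumors and 62.1, 69.5 and 30.0 TPM in RPR2 lung tumors. Metastases of each genotype lay below the lung tumors of the same genotype, and Nfib-floxed metastases lay above RPR2 metastases. The mean tissue difference was -1.001 ± 0.29 on the log2 scale (SE, adjusted p = 0.0694), lower in the metastasis in 4 of 4 mice, and the RPR2 tissue difference was -1.21 ± 0.40 (adjusted p = 0.124). Without the RPR2 lung tumor of JHK1548 the first was -1.19 ± 0.26 with an adjusted p of 0.0330 and the second -1.58 ± 0.38 with an adjusted p of 0.0483. This was the only alternative fit in which either passed, 1 of 20 for the first and 1 of 21 for the second. Col18a1 overlaps Slc19a1, a folate carrier gene on the other strand at 7.51 to 22.7 TPM, and reads of the shared bases cannot be told apart. Col15a1, a close relative of Col18a1, ran from 1.34 to 11.3 TPM. Col7a1, the anchoring fibril collagen of skin, was at 2.62 and 1.15 TPM in Nfib-floxed metastases, 2.44 and 52.4 TPM in RPR2 metastases and 0.375 to 4.78 TPM in lung tumors. It was high in the RPR2 metastasis of JHK1394 alone.

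FACIT collagens sit on the surface of other fibrils. Col9a2, a chain of cartilage type IX collagen, was at 3.63 and 43.5 TPM in Nfib-floxed metastases and 12.9 and 17.2 TPM in RPR2 metastases, and at 9.87, 15.1 and 38.1 TPM in Nfib-floxed lung tumors and 33.4, 14.4 and 31.2 TPM in RPR2 lung tumors. All groups overlapped. Its partner chain gene Col9a3 was at 68.7 TPM in the RPR2 metastasis of JHK1394 and at most 10.8 TPM elsewhere, and Col9a1 was at most 0.197 TPM. Col22a1, known from tissue junctions of muscle, was at 27.3, 5.18 and 2.73 TPM in Nfib-floxed lung tumors and 0.319, 2.69 and 1.35 TPM in RPR2 lung tumors (log2 difference 1.94 ± 0.72, adjusted p = 0.595). In metastases it was at 1.61 and 3.60 TPM in the Nfib-floxed group and 1.91 and 0.686 TPM in the RPR2 group, which overlapped. Col20a1 was at 0.589 and 1.40 TPM in Nfib-floxed metastases and 2.09 and 0.863 TPM in RPR2 metastases, and at 3.37, 7.44 and 2.64 TPM in Nfib-floxed lung tumors and 1.84, 1.90 and 1.79 TPM in RPR2 lung tumors. Nfib-floxed metastases lay below Nfib-floxed lung tumors, by -1.39 ± 0.50 on the log2 scale (adjusted p = 0.426). Col14a1, whose product associates with fibrils and which was chosen after its values were seen, was the 1 tested collagen gene higher in the metastasis in 4 of 4 mice. It was at 5.04 and 9.13 TPM in Nfib-floxed metastases and 15.2 and 18.3 TPM in RPR2 metastases, and at 10.7, 4.30 and 2.16 TPM in Nfib-floxed lung tumors and 3.84, 6.46 and 6.52 TPM in RPR2 lung tumors. The mean tissue difference was 0.94 ± 0.39 (adjusted p = 0.206).

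Type VI collagen is a microfibril of 3 different chains. Col6a1, Col6a2 and Col6a3 ran from 3.79 to 24.9 TPM, 2.70 to 7.73 TPM and 2.04 to 12.2 TPM over the 10 libraries. Col6a1 was lower in the metastasis in 4 of 4 mice, with a mean tissue difference of -0.89 ± 0.35 (adjusted p = 0.184). Col6a5, which can take the place of the alpha3 chain, was at 6.74 and 2.34 TPM in Nfib-floxed metastases and 0.248 and 0.296 TPM in RPR2 metastases, without overlap (log2 difference 2.00 ± 0.84, adjusted p = 0.335). In lung tumors it was at 5.74, 2.06 and 0.212 TPM in the Nfib-floxed group and 1.18, 6.92 and 2.30 TPM in the RPR2 group, which overlapped. Of the transmembrane collagens, Col23a1 was at 0.0624 and 0.167 TPM in Nfib-floxed metastases and 0.314 and 5.82 TPM in RPR2 metastases, and at 1.31, 16.2 and 4.76 TPM in Nfib-floxed lung tumors and 2.93, 15.4 and 5.44 TPM in RPR2 lung tumors. It was lower in the metastasis in 4 of 4 mice, and the Nfib-floxed groups did not overlap (log2 difference -2.46 ± 0.93, adjusted p = 0.448). Over the 29 genes, the 4 genes Col6a1, Col18a1, Col4a5 and Col23a1 were lower in the metastasis in 4 of 4 mice, and 1 gene, Col14a1, was higher, where 14% of all tested genes were lower and 7.94% higher. They were picked out after their values were seen.

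Single libraries held the peaks of several members. The Nfib-floxed lung tumor of JHK997 was the highest library for 18 of the 44 collagen genes, 15 of them tested, among them Col1a1, Col1a2, Col3a1, Col18a1 and Col4a2. The share of all tested genes that peaked in this tumor was not counted, so the count is not read as particular to collagen genes. The same tumor also held the highest sums of the 11 fibroblast markers (445 TPM, beside 92.2 to 239 TPM in the other 9 libraries), the 6 pericyte markers (341 TPM, beside 16.3 to 110 TPM) and the 6 smooth muscle and myofibroblast markers (239 TPM, beside 47.7 to 225 TPM). By single marker, this tumor was highest for 2 of 11 fibroblast, 4 of 6 pericyte and 4 of 6 smooth muscle and myofibroblast markers. It was highest for 4 of 10 endothelial and 0 of 6 stellate cell markers. The stellate cell sum was 80.8 TPM there and peaked in the RPR2 lung tumor of JHK1373 (110 TPM). The endothelial sum was 145 TPM there and peaked in the Nfib-floxed lung tumor of JHK1399 (199 TPM). The part of these cells in the collagen levels of this tumor was not tested. The share over all genes was not counted for the next description either, which was made after the values were seen. Among tested collagen genes, 4 had a highest library more than 3 times the second. They were Col10a1, the hypertrophic cartilage collagen, at 108 TPM in JHK997 and at most 7.19 TPM elsewhere, Col22a1 in the same tumor, and Col7a1 and Col9a3 in the RPR2 metastasis of JHK1394. Col10a1 overlaps Nt5dc1, a gene on the other strand at 18.2 TPM in that tumor and 3.85 to 16.6 TPM elsewhere. Without the RPR2 metastasis of JHK1373, which leaves JHK1394 as the lone RPR2 metastasis and assumes that it varied like the other groups, Col7a1 and Col9a3 passed in the RPR2 tissue comparison. Col9a3 then also passed between the genotypes in metastases.

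**Figure D5:**
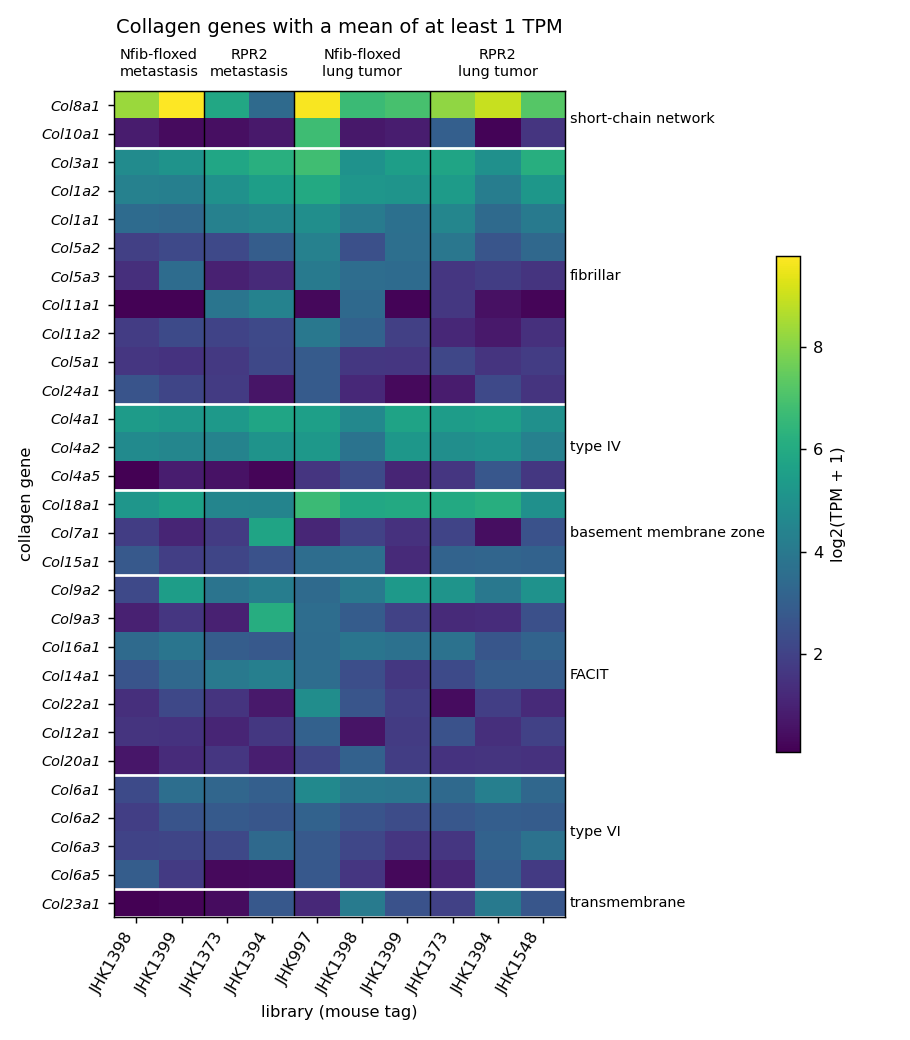
Colors give log2(TPM + 1) of the 29 tested collagen genes (lines, by structural class) in the 10 libraries (columns, by group and mouse tag). The column of the Nfib-floxed lung tumor of JHK997 is the brightest for 15 of the 29 genes, a count made for collagen genes only. Isolated bright cells mark Col7a1 and Col9a3 in the RPR2 metastasis of JHK1394 and Col10a1 in JHK997.

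The 15 collagen genes under the filter were Col2a1, Col27a1, Col4a3, Col4a4, Col4a6, Col6a4, Col6a6, Col9a1, Col19a1, Col8a2, Col13a1, Col17a1, Col25a1, Col26a1 and Col28a1. When all genes above 0 in any library were tested with limma, 0 of these 15 passed in each of the 7 comparisons. Of all 25185 genes in that fit, 0% passed between the genotypes in lung tumors, 1.46% between the genotypes in metastases, 2.87% between the RPR2 tissues, 0.00794% between the Nfib-floxed tissues, 0.449% for the interaction, 0.417% for the mean genotype effect and 2.04% for the mean tissue effect. At an unadjusted p under 0.05 the count was 6 of 15 between the RPR2 tissues (14.3% of all genes) and 4 for the mean tissue effect (15.7%). It was 2 in lung tumors (6.88%), 2 in metastases (10.3%), 2 between the Nfib-floxed tissues (6.95%), 2 for the interaction (8.03%) and 1 for the mean genotype effect (10.4%). The smallest adjusted p was 0.0735, for Col28a1 and the mean tissue effect. Of the 15, the 3 genes Col4a3, Col4a6 and Col28a1 were lower in all 4 metastases than in all 6 lung tumors. So were 1.36% of the 9682 genes that averaged under 1 TPM and were above 0 in any library. A gene at 0 in any lung tumor cannot have this arrangement. The 9682 include such genes, and how many was not counted, so the share is no like base for the 3 genes. Col28a1 encodes a collagen with von Willebrand factor type A domains and was at 0.0597 and 0.208 TPM in Nfib-floxed metastases, 0.0349 and 0.1002 TPM in RPR2 metastases and 0.387 to 1.26 TPM in lung tumors. Col2a1, the main cartilage fibrillar collagen, reached 1.65 TPM in the RPR2 metastasis of JHK1394 and was at most 0.298 TPM in the other libraries.

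The classes also differ in gene structure, which the selection by name did not use. In the GENCODE annotation of GRCm38, 48.6% of the 627 inner coding exons of fibrillar genes were 54 bases long, beside 26.3% of 414 in FACIT genes, 4.23% of 284 in type IV genes and 0.444% of 157295 in all other protein-coding genes. Exons whose length is a multiple of 9 bases, the length that codes for a Gly-X-Y triplet, made up 83.9% of inner coding exons in fibrillar genes, 47.2% in type IV genes and 13.7% in other genes. Col8a1, Col8a2 and Col10a1 have 2 coding exons each, where the median was 60 in fibrillar and 49.5 in type IV genes. Of 5 pairs of neighboring members on 1 strand, 2 had their highest level in the same library, the Nfib-floxed lung tumor of JHK997. They were Col6a2 with Col6a1 and Col6a1 with Col18a1, all on chromosome 10. The other 3 pairs, Col9a3 with Col20a1, Col6a6 with Col6a5 and Col6a5 with Col6a4, peaked in different libraries. Among neighbors on opposite strands, Col3a1 and Col5a2 both peaked in the JHK997 tumor. Col4a3 with Col4a4 and Col4a5 with Col4a6 peaked in the RPR2 lung tumor of JHK1394. Col4a1 with Col4a2 and Col9a1 with Col19a1 peaked in different libraries.

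Genes that make, cross-link, bind and degrade collagen were counted from lists of the pathway. Between the genotypes in metastases, 1 of 21 tested genes of collagen hydroxylation and folding passed and was higher, beside 1.13% of all genes, and 0 of 57 genes in the other 6 lists. Of all 78, 10 had an unadjusted p under 0.05 (12.8% of all genes). The gene that passed was P4ha1, the catalytic subunit of a prolyl 4-hydroxylase that stabilizes the triple helix, at 54.03 and 42.7 TPM in Nfib-floxed metastases and 13.5 and 10.5 TPM in RPR2 metastases (log2 difference 1.93 ± 0.38, adjusted p = 0.0341). It no longer passed when any of 6 of the 10 libraries was left out (each of the 4 metastases and the RPR2 lung tumors of JHK1373 and JHK1548), with an adjusted p of up to 0.218. Between the genotypes in lung tumors 0 of the 78 genes passed with limma, and 6 would have at an unadjusted p under 0.05 (7.93% of all genes). Between Nfib-floxed metastases and lung tumors 0 passed and 20 would have (9.39% of all genes). For the interaction 0 passed and 8 would have (9.68% of all genes), and for the mean genotype effect 0 passed and 8 would have (13.4% of all genes).

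Between RPR2 metastases and RPR2 lung tumors, 1 of 21 genes of hydroxylation and folding fell, 1 of 9 of processing and cross-linking rose, 1 of 10 of degradation fell and 2 of 9 of TGF-beta signaling fell, while 0 of 8 fibril proteoglycans and 0 of 8 collagen receptors passed. Of all tested genes 2.04% rose and 3.57% fell, and 27 of the 78 had an unadjusted p under 0.05 (18.8% of all genes). Pxdn, peroxidasin, which forms sulfilimine cross-links in type IV collagen, was at 64.3 and 96.5 TPM in RPR2 metastases and 6.64, 6.63 and 7.90 TPM in RPR2 lung tumors (log2 change 3.31, adjusted p = 0.0189). The groups did not overlap, and the epithelial markers were low in the same metastases. Colgalt2, a collagen galactosyltransferase, changed by -3.47 (adjusted p = 0.0278), the metalloproteinase inhibitor gene Timp3 by -2.71 (adjusted p = 0.0385), the microfibril-associated Ltbp2 by -2.75 (adjusted p = 0.0148) and the ligand gene Tgfb3 by -1.67 (adjusted p = 0.0234). All 5 genes lost their call without the RPR2 metastasis or the RPR2 lung tumor of JHK1373, and all but Ltbp2 without either tumor of JHK1394, with adjusted p up to 0.227. Timp3 also lost it without the Nfib-floxed lung tumor of JHK997 or JHK1399. With mouse as a fixed block the adjusted p was 0.0706 for Ltbp2 and 0.102 for Tgfb3.

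As a mean over both genotypes, 11 of the 78 genes fell in metastases relative to lung tumors and 0 rose, where 4.12% of all tested genes fell and 1.76% rose. They were 1 of 21 genes of hydroxylation and folding (Colgalt2), 2 of 9 of processing and cross-linking (Pcolce, an enhancer of procollagen C-proteinase, and Loxl1, a lysyl oxidase), 3 of 8 fibril proteoglycans (Bgn, Ogn and Fmod, small leucine-rich proteoglycans), 3 of 10 of degradation (Ctsk, Mmp13 and Timp3) and 2 of 9 of TGF-beta signaling (Ltbp2 and Tgfbr2). None of 13 basement membrane partners or 8 collagen receptors passed. Loxl1 was at 1.007 and 0.939 TPM in Nfib-floxed metastases and 1.96 and 2.21 TPM in RPR2 metastases, and at 11.9, 8.19 and 7.93 TPM in Nfib-floxed lung tumors and 8.54, 6.19 and 5.997 TPM in RPR2 lung tumors (log2 change -1.86 ± 0.28, adjusted p = 0.00796). Ltbp2 was at 0.355 and 0.389 TPM in Nfib-floxed metastases and 0.519 and 2.94 TPM in RPR2 metastases, and at 7.26, 14.1 and 19.2 TPM in Nfib-floxed lung tumors and 20.9, 12.1 and 14.5 TPM in RPR2 lung tumors (-3.03 ± 0.38, adjusted p = 0.00336). Every metastasis lay below every lung tumor in both genes. The other log2 changes were -2.82 for Colgalt2, -1.58 for Pcolce, -1.18 for Bgn, -2.02 for Ogn, -2.23 for Fmod (listed at 0 in the RPR2 metastasis of JHK1373), -3.42 for Ctsk, -1.94 for Mmp13, -2.36 for Timp3 and -1.69 for Tgfbr2. Leaving out 1 library ended the call of 9 of these 11 genes, all 9 without either RPR2 metastasis, which leaves 1 library in that group, and all but Colgalt2 without the JHK1398 metastasis of the Nfib-floxed group, with adjusted p up to 0.171. Bgn, Mmp13 and Tgfbr2 also lost it without the RPR2 lung tumor of JHK1394, Tgfbr2 without that of JHK1373, Ctsk and Tgfbr2 without the Nfib-floxed lung tumor of JHK997 or JHK1399, and Ctsk without either tumor of the Nfib-floxed mouse JHK1398 or the metastasis of JHK1399. Loxl1 and Ltbp2 passed without any 1 library. With mouse as a fixed block Loxl1 (adjusted p = 0.0646), Bgn, Ogn, Fmod, Mmp13 and Tgfbr2 (0.0557 to 0.0908) no longer passed. By sum, lung cell markers were higher in lung tumors, as given above, as was macrophage marker RNA (160 to 477 TPM in metastases and 479 to 4465 TPM in lung tumors). Of 10 tested fibroblast markers 7 were lower by mean in metastases (median -0.91) and 2 fell, Mfap5 (adjusted p = 0.00130) and Dpt. All 10 endothelial markers were lower by mean (median -0.70) and 1 fell, Cldn5 (adjusted p = 0.0270). Other stromal lists went the other way. Higher by mean in metastases were all 6 smooth muscle and myofibroblast markers (median 0.63), 4 of 6 pericyte markers (0.41) and 3 of 4 tested stellate cell markers (1.48). Of these Colec11 passed with limma (log2 change 2.85, adjusted p = 0.0186). Of all 15503 tested genes 9059 were lower by mean. The part of these cells in the falls was not tested.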

How the data were processed

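PolyA RNA from 10 macrodissected tumors was sequenced from NEBNext Ultra II libraries, per the labels' protocols. The submitters' processing notes name genome build GRCm38 with Salmon 0.12.0, bcl2fastq 2.20 and R 4.1.0. The authors deposited 1 table of TPM per gene, scaled to 1000000 in every library. The depth behind these values is therefore unknown, and no interval for counting error can be given. Salmon divides reads between similar transcripts by estimation, which can shift levels between chains of near-identical sequence.

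Libraries were grouped by their labels. No library pair held identical values. Within a group each library came from a different mouse. The test was limma (version 3.58.1, run in R 4.3.3) on log2(TPM + 1) of the 15503 genes that averaged 1 TPM or more, in 1 model of the 4 groups with a mean trend (residual degrees of freedom 6, prior 4.56), two-sided, with Benjamini-Hochberg adjustment over all tested genes and a threshold of 0.05. A log2 difference on this scale understates the change of low genes. The mean genotype effect took mouse as a random effect (correlation 0.0509). Same mouse tags pair lung tumor and metastasis in 4 mice by design. Deviations of the pairs from the group means correlated at -0.0229, -0.008, 0.0426 and 0.0489. The tests were also run on simulated data with independent noise of the same spread in every group. These data held no mouse pairs or single-library peaks, so the run does not cover such cases.

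Collagen genes with values in every library are the 8 with the highest mean, all tested type IV chains, the 3 with the smallest p in each comparison of 2 groups, and any apart in both genotype comparisons in 1 direction; others were picked after their values were seen. The members, the structural classes and the pathway and marker lists (197 symbols, of which 196 were matched) were chosen with earlier results of these data known. Positions and exons come from the GENCODE annotation of GRCm38, and promoters from RefSeq. Other steps ran in Python 3.11.15 (pandas 2.3.3, numpy 2.4.6, matplotlib 3.10.9, scipy 1.17.1). Alternatives changed the pseudocount (0.1 or 5), the filter (none, or 5 TPM) and the scaling (quantile normalization, centring on the median, rescaling without the most abundant marker, mitochondrial and hemoglobin genes), added mouse blocks, fitted 2 groups alone or left out each library. A fit without the 2 lung tumors richest in club cell markers (JHK1398 and JHK1394) was added after seeing the data. For the list of basement membrane partners, the comparison of RPR2 metastases with RPR2 lung tumors is not reported here, nor are the neuroendocrine markers.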

Additional observations from a re-analysis of the deposited data

How the results depend on the processing

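The count of collagen genes past the threshold was 0 in all 7 comparisons and became 1 or 2 under some alternatives. Between the genotypes in metastases it was 1 with a pseudocount of 5 and 1 without the lung tumors of JHK1398 and JHK1394, an alternative added after seeing the data (Col11a1 in both). Between RPR2 metastases and RPR2 lung tumors it was 1 with a pseudocount of 5, 1 with mouse as a random block, 1 with the 2 groups alone and 1 under the added alternative (Col11a1 in each), and 1 with mouse as a fixed block (Col8a1). For the mean tissue effect it was 1 with a pseudocount of 0.1 (Col4a5). The replicate block changed no other count of collagen genes. Leaving out each library in turn gave 0 to 1 genes between the genotypes in metastases, 0 to 2 between the RPR2 tissues, 0 to 1 for the mean genotype effect and 0 to 1 for the mean tissue effect, and 0 in the other comparisons. For the mean genotype and the mean tissue effect, Col11a1 passed without the Nfib-floxed lung tumor of JHK1398. Col5a3 passed for the mean genotype effect without 1 other library. A fit without 1 metastasis leaves 1 library in its group, assumed to vary like the others. In all, 119 of 140 settings left the count as it was. The sign of the log2 difference held in all 837 settings for the 42 pairs of gene and comparison that were rerun, from 29 genes. These pairs were mostly chosen for a small p, for groups without overlap or for having passed. A turned sign was therefore unlikely from the start, and the count does not measure stability. Other values, such as the differences of Col4a1 and Col4a2 near 0, were not rerun. The calls of pathway genes were less stable: 16 of 17 were lost under at least 1 alternative and 15 without at least 1 library, most often an RPR2 metastasis (15 calls without that of JHK1373 and 14 without that of JHK1394). Only the fall of Ltbp2 in the mean tissue effect passed in all 20 of its settings. The summed type IV level in Nfib-floxed metastases was 0.864 times that in RPR2 metastases, and 0.729 to 1.06 times when single libraries were left out. Groups of 2 or 3 libraries limit every test here, and TPM without counts leaves the error of low members, such as the alpha3 to alpha6 chains, unknown. Apart from the fits named, the cause of each move was not tested.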
